A study of Mus musculus with 68 samples.

Results

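MCM2-2A#2 and MCM2-2A#1 are separate clones of mouse embryonic stem cells (ESCs) with the same mutation, and their January libraries show how far 2 lines of 1 genotype differ in RNA. They make up 6 of the 68 libraries of the series, 3 of MCM2-2A#2 and 3 of MCM2-2A#1, and were chosen by the line number in the sample titles, which the study's sample table ties to the clone names and to January. Both clones were edited in the E14JU line, which is male and of strain 129/Ola, both carry the MCM2-2A genotype by label, and both were grown untreated on gelatin with serum and LIF. Each is a single clone, so a difference between them cannot be told apart from any other difference between 2 single-cell descendants. The total RNA was depleted of ribosomal RNA and made into strand-specific libraries. The study calls its replicates biological, but the labels do not say from which cultures or days they came, so p-values measure only the spread between these libraries, which may be partly technical.

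MCM2 is a subunit of the replicative helicase, the ring that unwinds DNA ahead of the replication fork. Its tail also binds histones H3 and H4 and helps to place parental histones on the lagging strand, and MCM2-2A alters that histone-binding part. Parental histones carry marks such as H3K27me3, laid down by Polycomb at developmental genes, and H3K9me3, found on repeats and at many germline genes. ESCs in serum and LIF are a mixture of naive cells, cells that begin to express lineage genes, and rare cells that resemble the 2-cell embryo.

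The gene rows held 36485298 to 54172574 counts a library. Values are given as CPM, counts scaled to a common library size by factors computed from gene counts alone, and compare 1 gene between libraries, not genes with each other. The labelled cell type fitted its markers: Pou5f1, Sox2, Nanog, Esrrb and Zfp42 summed to 1421 to 1834 CPM in MCM2-2A#2 and 1385 to 1573 CPM in MCM2-2A#1. Markers of blood and endothelium summed to 0.785 to 1.11 CPM in MCM2-2A#2 and 0.595 to 0.705 CPM in MCM2-2A#1. Fibroblast markers (Col1a1, Col1a2, Col3a1) summed to 22.6 to 65.7 CPM in MCM2-2A#2, against 68.2 to 90.7 CPM in MCM2-2A#1. Trophectoderm markers (Cdx2, Elf5, Eomes) summed to 5.63 to 16.7 CPM, against 18.9 to 21.6 CPM, and primitive endoderm markers (Gata6, Gata4, Sox17) to 5.54 to 12.7 CPM, against 4.25 to 5.13 CPM, in the same order of clones.

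Library 1 of MCM2-2A#2 stood apart. Over 11733 expressed genes MCM2-2A#2 library 1 correlated with the MCM2-2A#1 libraries at r = 0.988 to 0.990, and with libraries 2 and 3 of its own clone at only 0.973 to 0.977. Libraries 2 and 3 correlated with each other at 0.986 and with MCM2-2A#1 at 0.956 to 0.972, and the MCM2-2A#1 libraries with each other at 0.993 to 0.994. On the first principal component, with 69.9% of the variance, the MCM2-2A#2 libraries lay at -5.2, 24.7 and 35.1 and the MCM2-2A#1 libraries at -17.6, -20.7 and -16.3. Library 1 nevertheless carried the clone's own signs on chromosomes Y and 6 at the level of libraries 2 and 3 or beyond it, as described below for Ddx3y and Chchd4. Results are therefore given with all 3 libraries and without library 1, an alternative that leaves 2 MCM2-2A#2 libraries.

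With all libraries, edgeR's quasi-likelihood test called 9 of 19757 genes higher in MCM2-2A#2 (0.0456%) and 3 lower (0.0152%), at a Benjamini-Hochberg adjusted p below 0.01 and a log2 fold change beyond 0.58 either way. Before adjustment 4354 genes (22%) had a p below 0.05. Without library 1 the test called 528 genes higher (2.59% of 20348) and 913 lower (4.49%), and the common dispersion was 0.0176, against 0.0307 with it. All 3 MCM2-2A#2 libraries lay above all 3 MCM2-2A#1 libraries for 2885 genes (14.6%) and below them for 2620 genes (13.3%). The count depended on the model: DESeq2 called 432 genes and an edgeR fit that took its spread from all clone libraries 1013, while leaving out MCM2-2A#2 library 2 or any MCM2-2A#1 library left 2 or 3. The 12 called genes are Wnk3, Grb10 and 7 members of the Zscan4 cluster, which were higher, and Ddx3y, Uty and Chchd4, which were lower. Wnk3 and Ddx3y stayed called whichever library was left out. The Zscan4 genes, Uty and Chchd4 (and the repeats MERVL-int and MT2_Mm) lost the call without MCM2-2A#2 library 2 and without any 1 of the MCM2-2A#1 libraries, with adjusted p up to 0.102 (Zscan4a), and Grb10 without MCM2-2A#2 library 2 (0.0117) or MCM2-2A#1 library 1 (0.0321).

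Libraries that the January comparison does not use give a second look at the same clones. MCM2-2A#2 and the wild-type clone WT#1 were sequenced in 4 cultures each in the rescue experiment, which was run to compare them with a reverted line, and MCM2-2A#1 and WT#1 in 3 libraries each in March. The difference between the clones was then taken through WT#1, as MCM2-2A#2 over WT#1 in the rescue cultures minus MCM2-2A#1 over WT#1 in March, and is called the bridged difference here. It called 33 genes higher in MCM2-2A#2 (0.154% of 21472) and 145 lower (0.675%), and between 42 and 501 in all when 1 of its 14 libraries or cultures was left out, the most without WT#1 rescue culture 2 and the fewest without MCM2-2A#1 March library 5. Of the 12 January calls 5 were bridged calls in the same direction, Wnk3, Grb10, Ddx3y, Uty and Chchd4 (41.7% of the January calls and 2.82% of the 177 bridged calls tested in both). Of those 177 bridged calls, 176 (99.4%) had the same sign in January with all libraries, and 149 (84.2%) were January calls without library 1 (10.4% of the 1439 tested in both). For scale, MCM2-2A#1 in January over MCM2-2A#1 in March, the same clone at 2 times, gave 85 genes called higher (0.423% of 20087) and 3 lower (0.0149%), or 288 without January library 1 and 44 without March library 5. MCM2-2A#3 over MCM2-2A#1 in March, another pair of clones with this mutation, gave 1305 higher (6.43% of 20305) and 2537 lower (12.5%). The bridged difference and the March pair share the MCM2-2A#1 March libraries, so their values are set side by side only. Some pseudogene and repeat rows lay at different levels in the rescue cultures and in March, also in WT#1. There Ppp1r2-ps2 had means of 0.046 and 6.81 CPM and the satellite repeat GSAT_MM 51.6 and 8.34 CPM, in that order. The retrovirus IAPEz-int had 268 and 258 CPM. The effect on the bridged values of copied genes and repeats was not tested.

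The largest log2 fold changes among called genes were those of 2 genes of the Y chromosome, which were lower in MCM2-2A#2. Ddx3y (ENSMUSG00000069045, chrY:1260771-1286629 in GRCm38), a Y-linked RNA helicase with an X-linked partner, had 1.49, 2.22 and 2.7 CPM in MCM2-2A#2, against 33.4, 36.6 and 37.3 CPM in MCM2-2A#1. The groups were far apart and library 1 was the lowest of all. The log2 fold change was -4.08 (SE 0.20, adjusted p = 0.00023), with -3.86 without library 1 and a bridged difference of -3.80. Uty, the Y-linked relative of the H3K27 demethylase Utx, had 1.34, 2.42 and 2.93 CPM in MCM2-2A#2, against 21.2, 21.3 and 24.5 CPM in MCM2-2A#1, a log2 fold change of -3.34 (SE 0.26, adjusted p = 0.0030). Eif2s3y, a Y-linked translation initiation factor subunit, had 3.34, 11.3 and 10.2 CPM, against 31.6, 32.6 and 33.3 CPM, and did not pass the test with all libraries (log2 fold change -1.98, SE 0.37, adjusted p = 0.058). Its bridged difference of -2.26 passed it (adjusted p = 6.9e-06). In all 3 genes the remaining RNA in MCM2-2A#2 was lowest in library 1.

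The other Y genes of the list did not pass the test with all libraries. Uba1y, a ubiquitin-activating enzyme, had 1.95, 3.11 and 3.12 CPM in MCM2-2A#2, against 4.21, 3.84 and 4.86 CPM in MCM2-2A#1 (log2 fold change -0.66, adjusted p = 0.16). Its bridged difference of -1.335 passed the test (adjusted p = 0.0069). Usp9y stayed between 0.334 and 0.654 CPM in MCM2-2A#2 and between 0.346 and 0.394 CPM in MCM2-2A#1, and Zfy1 between 0.138 and 0.445 CPM and between 0.265 and 0.307 CPM in that order, with overlap in both genes. Their bridged differences of 0.27 (Usp9y, adjusted p = 0.89) and -2.72 (Zfy1, adjusted p = 0.019) did not pass the test. Rbmy, a germ cell RNA-binding gene with several copies, had 2.91, 2.31 and 2.36 CPM in MCM2-2A#2, against 4.92, 5.09 and 4.34 CPM in MCM2-2A#1, with no overlap (-0.92, adjusted p = 0.058), and was called without library 1 (-1.04, adjusted p = 0.0042). Unlike Ddx3y and Uty it was above WT#1 in the March libraries of MCM2-2A#1, with 5.66, 6.39 and 6.35 CPM, against 0.0467, 0.15 and 0.129 CPM in WT#1, and it is listed at 0 in all rescue cultures of both lines, so no bridged value is given. Over the 7 tested genes of the list the median log2 fold change was -0.92, beside 0.003 over all genes. Of the 7, 2 were called lower, beside 0.0152% of all genes, and 4 were called lower in the bridged difference, beside 0.675%. Reads from the X copies of Ddx3y, Uty and Eif2s3y could add to such low counts, which was not tested. Against WT#1, Ddx3y was at -4.47 on the log2 scale in MCM2-2A#2 (rescue cultures) and at -0.66 in MCM2-2A#1 (March), and Uty at -4.41 and -0.43, so the low level belonged to MCM2-2A#2. Bulk RNA cannot tell fewer cells with a Y chromosome from less RNA per cell.

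**Figure D1:**
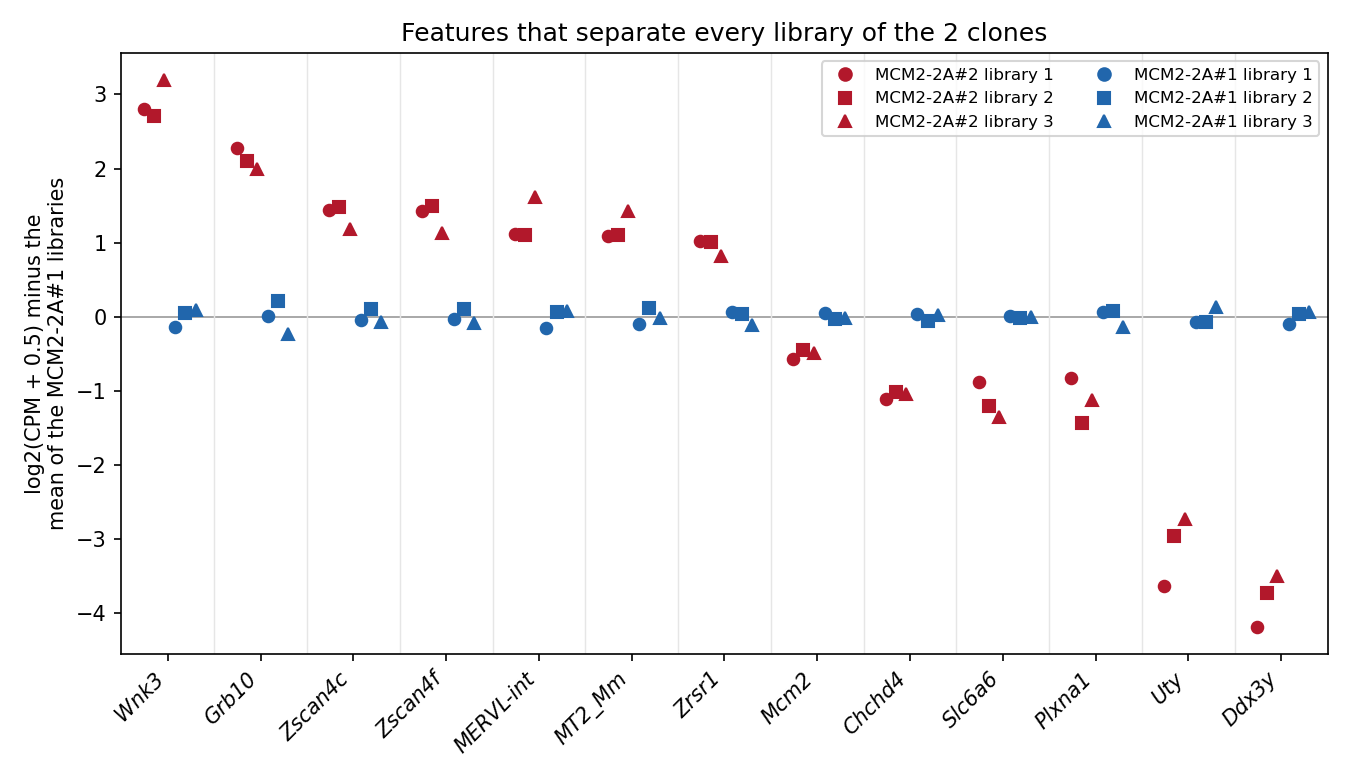
Levels in each January library of features the comparison turns on. MCM2-2A#2 is in red and MCM2-2A#1 in blue (circle, square and triangle for libraries 1, 2 and 3). Wnk3 is an example, drawn from values of 72.7 to 102 CPM in MCM2-2A#2 and 9.68 to 11.4 CPM in MCM2-2A#1. In Wnk3, MCM2-2A#2 library 1 lies with its own clone.

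Wnk3 and Grb10 were the called genes with the largest positive log2 fold changes. Wnk3 (ENSMUSG00000041245, chrX:151198078-151320152), a kinase that regulates cation-chloride cotransport, had 77.8, 72.7 and 102 CPM in MCM2-2A#2, against 9.68, 11.2 and 11.4 CPM in MCM2-2A#1. No library of either clone approached the other clone. The log2 fold change was 2.97 (SE 0.15, adjusted p = 0.00023), a 7.82-fold difference. The bridged difference was 2.88, made up of a log2 fold change over WT#1 of 0.80 in MCM2-2A#2 (adjusted p = 4.8e-05) and -2.08 in MCM2-2A#1 (adjusted p = 3.7e-09). MCM2-2A#3 over MCM2-2A#1 in March gave 3.04, so MCM2-2A#1 was the low clone in each setting measured.

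Grb10 (chr11:11930508-12038683), an imprinted adaptor that restrains insulin and IGF receptor signalling, had 71.0, 62.8 and 58.3 CPM in MCM2-2A#2, against 14.3, 16.6 and 12.1 CPM in MCM2-2A#1. The log2 fold change was 2.16 (SE 0.14, adjusted p = 0.0010), a 4.47-fold difference, and the bridged difference was 2.46. Over WT#1 it was 0.39 in MCM2-2A#2 (adjusted p = 0.018) and -2.07 in MCM2-2A#1 (adjusted p = 6.7e-09), and the March pair gave 1.89. As for Wnk3, the larger shift from WT#1 was in MCM2-2A#1.

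Imprinted genes as a list did not move together. Of 53 tested, 1 was called higher, beside 0.0456% of all genes. Of the 53, 9 lay wholly above (17%, beside 14.6% of all genes) and 12 wholly below MCM2-2A#1 (22.6%, beside 13.3%). The median log2 fold change was -0.04. Mest (chr6:30723547-30748465), a paternally expressed hydrolase, had 55.5, 21.5 and 20.4 CPM in MCM2-2A#2, against 135 CPM in each of the 3 MCM2-2A#1 libraries. Every MCM2-2A#2 library was below, with library 1 between. Its log2 fold change was -2.05 (SE 0.35, adjusted p = 0.041), -2.69 without library 1 (adjusted p = 3.3e-06) and -1.75 in the bridged difference (adjusted p = 6.2e-05). Zrsr1 (chr11:22972005-22976496), a paternally expressed splicing factor gene, had 22.3, 22.2 and 19.5 CPM in MCM2-2A#2, against 11.3, 11 and 9.96 CPM in MCM2-2A#1. Here library 1 was level with the other libraries of its clone, and the log2 fold change of 0.98 (SE 0.12) just missed the threshold (adjusted p = 0.012), while the bridged difference of 1.32 passed it (adjusted p = 5.8e-06).

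H13, a signal peptide peptidase, had 28.9, 28.4 and 30.6 CPM in MCM2-2A#2, against 19.4, 18.3 and 18.8 CPM in MCM2-2A#1, and also missed it (log2 fold change 0.64, adjusted p = 0.026). Plagl1, a zinc finger transcription factor, had 21.9, 8.90 and 7.70 CPM in MCM2-2A#2, against 3.94, 3.13 and 4.69 CPM in MCM2-2A#1, with library 1 the highest. Its log2 fold change was 1.72 (adjusted p = 0.097), and the bridged difference 1.46 (adjusted p = 0.020). Igf2, the fetal growth factor, had 16.0, 8.65 and 2.43 CPM in MCM2-2A#2, against 16.2, 19.9 and 19 CPM in MCM2-2A#1, with the MCM2-2A#2 libraries far apart. Gnas, the stimulatory G protein subunit, had 134, 81.3 and 87.0 CPM, against 163, 160 and 151 CPM, a log2 fold change of -0.65 (adjusted p = 0.13) and a bridged difference of -0.74 (adjusted p = 0.0021).

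The Mcm2 gene itself and its neighbours were lower in MCM2-2A#2. Mcm2 (chr6:88883474-88898780, minus strand) had 173, 189 and 184 CPM in MCM2-2A#2, against 266, 252 and 255 CPM in MCM2-2A#1, with no overlap and a log2 fold change of -0.50 that was not called (SE 0.08, adjusted p = 0.034). Over WT#1 it was -0.91 in MCM2-2A#2 (rescue) and -0.58 in MCM2-2A#1 (March). Beyond Mcm2 a stretch from Tpra1 to Slc6a6 (chr6:88902251-91759066, 2.86 Mb) held 26 tested genes with a median log2 fold change of -0.95, and 19 of them (73.1%) had all MCM2-2A#2 libraries below MCM2-2A#1, beside 13.3% of all genes. Of its 20 genes with at least 1 CPM all 20 were negative, with a median of -0.97, and 18 (90%) did not overlap. The 30 tested genes before Mcm2 had a median of -0.07 and the 30 after Slc6a6 one of 0.06. The stretch was known from earlier results of these data, so its count describes it and is no test.

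**Figure D2:**
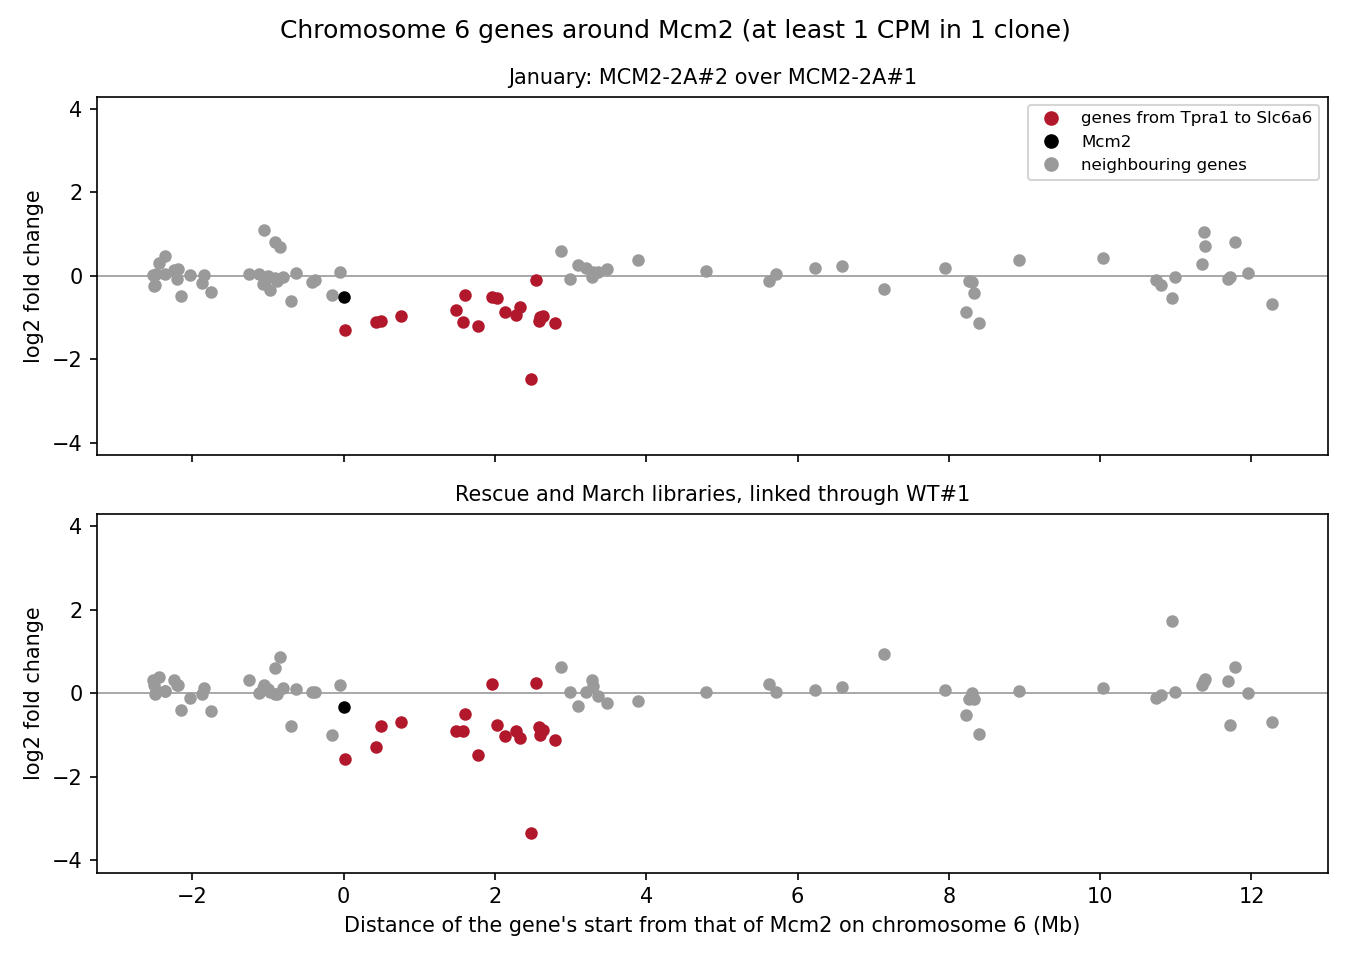
Log2 fold change of each gene with at least 1 CPM against the distance of its start from Mcm2 in Mb, for MCM2-2A#2 over MCM2-2A#1 in January (top) and for the bridged difference (bottom). Genes from Tpra1 to Slc6a6 drop to a median of -0.97 in January and -0.90 in the bridged difference, and the flanks lie around 0.

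Chchd4 (chr6:91462172-91473546), which imports proteins into the mitochondrial intermembrane space, was the called gene of the stretch. It had 23.4, 25.1 and 24.8 CPM in MCM2-2A#2, against 52.5, 49.6 and 52.0 CPM in MCM2-2A#1, a log2 fold change of -1.07 (SE 0.08, adjusted p = 0.0030). Slc6a6, the taurine transporter at the far end, had 68.5, 54.6 and 49.1 CPM, against 128, 126 and 126 CPM, and Plxna1, a semaphorin receptor, 115, 75.3 and 93.8 CPM, against 213, 216 and 186 CPM, in the same order of clones. Xpc, the damage sensor of nucleotide excision repair, had 8.02, 7.76 and 7.93 CPM in MCM2-2A#2, against 15.8, 16.4 and 14.5 CPM in MCM2-2A#1. These 3 genes had log2 fold changes of -1.14, -1.11 and -0.98 and adjusted p values of 0.012, 0.020 and 0.012. Nup210, a nuclear pore protein, Lsm3, a splicing factor subunit, Iqsec1, an ARF exchange factor, and Tmem43, a nuclear membrane protein, had -0.86, -0.96, -1.22 and -0.99. Library 1 lay with its clone in each of these genes, so that the median deviation of the 20 genes from the MCM2-2A#1 mean was -0.84, -0.93 and -0.93 in the 3 MCM2-2A#2 libraries on the log2(CPM + 0.5) scale.

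Without library 1, 14 of the 26 genes were called lower, beside 4.49% of all genes, and in the bridged difference 12 of 25 were, beside 0.675%, with a median of -0.90. MCM2-2A#3 over MCM2-2A#1 in March had a median of 0.01 over the stretch. Wnt7a, a WNT ligand within it, went further than its neighbours, with 1.81, 0.334 and 0.262 CPM in MCM2-2A#2 and 4.21, 4.96 and 4.97 CPM in MCM2-2A#1 (log2 fold change -2.48, adjusted p = 0.10). Its bridged difference of -3.35 was made up of -1.47 in MCM2-2A#2 over WT#1 and 1.88 in MCM2-2A#1 over WT#1. In the other genes of the stretch named above the larger shift from WT#1 was in MCM2-2A#2. In Chchd4, Slc6a6, Xpc, Nup210 and Lsm3 it was -0.97, -1.28, -1.04, -1.19 and -1.09, against -0.16, -0.15, -0.16, -0.17 and -0.20 in MCM2-2A#1. In Iqsec1, Tmem43 and Plxna1 it was -1.08, -0.73 and -0.94, against 0.40, 0.27 and 0.34. The predicted gene Gm4575 stayed level (-0.10), and Vmn1r43 and Gm20426 were slightly above 0 at under 1.1 CPM. Among the chromosomes, Y had the median farthest from 0 in January (-0.31), and it was 0.00 without library 1.

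Most genes of the 2-cell-like state had higher values in MCM2-2A#2. These genes come on briefly at zygotic genome activation, and in a few cells of an ESC culture. Of 33 tested, 28 (84.8%) had all MCM2-2A#2 libraries above MCM2-2A#1, beside 14.6% of all genes. Of the 33, 5 were called higher, beside 0.0456% of all genes, and the median log2 fold change was 1.17. Zscan4c (chr7:11005745-11010547), of a zinc finger family tied to telomere upkeep in ESCs, had 44.4, 45.9 and 37.1 CPM in MCM2-2A#2, against 15.6, 17.4 and 15.3 CPM in MCM2-2A#1. Its log2 fold change was 1.40 (SE 0.11, adjusted p = 0.0030). Zscan4f had 49.4, 51.4 and 40.1 CPM, against 17.6, 19.4 and 17.0 CPM, and Zscan4b 24.2, 22.1 and 19.4 CPM, against 7.80, 8.60 and 7.38 CPM. Together with Zscan4a, Zscan4e and the pseudogenes Zscan4-ps2 and Zscan4-ps3 they made up the 7 called members, with log2 fold changes of 1.35 to 1.47, and Zscan4d lay at the threshold (1.43, adjusted p = 0.010). Library 1 was as high as the other MCM2-2A#2 libraries in each. The copies are nearly identical, so reads may be shared among them and they count as less than 7 separate observations.

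The promoters of the copies show how alike they are and are given for a called pair. They are the 250 bases before and the first 50 bases after the RefSeq start in GRCm38.p6, Zscan4c at chr7:11005495-11005794 on the plus strand and Zscan4b at chr7:10905001-10905300 on the minus strand. Capitals mark TATAAAA and, in Zscan4c, TGATTCAA, searched for on both strands.
Zscan4c: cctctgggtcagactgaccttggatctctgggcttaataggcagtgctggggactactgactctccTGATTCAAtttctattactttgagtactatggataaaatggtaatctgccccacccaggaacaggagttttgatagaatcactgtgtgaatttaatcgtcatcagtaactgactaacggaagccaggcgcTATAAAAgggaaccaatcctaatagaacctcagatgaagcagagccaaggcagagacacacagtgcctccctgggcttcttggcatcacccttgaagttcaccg
Zscan4b: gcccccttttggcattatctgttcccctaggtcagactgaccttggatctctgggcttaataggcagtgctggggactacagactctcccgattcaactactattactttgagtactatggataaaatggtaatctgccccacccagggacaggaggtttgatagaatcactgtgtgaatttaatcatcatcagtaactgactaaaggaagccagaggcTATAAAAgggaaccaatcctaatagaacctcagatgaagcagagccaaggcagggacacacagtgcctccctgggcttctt
TATAAAA was in 5.48% of 32851 RefSeq promoters of this length and TGATTCAA in 0.581%. Zscan4c, Zscan4d and Zscan4f each held TGATTCAA once and Zscan4b did not, while all 4 held TATAAAA once. Reads may be shared among the 4 copies, so their log2 fold changes (1.38 to 1.47) cannot be set against these motifs. A link with either motif was not tested. Aligned pairs of these promoters were 95.3% to 99.3% identical.

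Other members of the 2-cell-like list had positive log2 fold changes without passing the test. Usp17la, of a deubiquitinase family, had 4.62, 3.70 and 3.87 CPM in MCM2-2A#2, against 1.34, 1.46 and 1.20 CPM in MCM2-2A#1 (log2 fold change 1.61, adjusted p = 0.012). Usp17le had 9.57, 8.40 and 8.82 CPM, against 3.26, 4.48 and 3.85 CPM (1.21, adjusted p = 0.019), and Trim43a, of a TRIM ligase family, 4.46, 4.95 and 4.48 CPM, against 2.05, 2.05 and 2.65 CPM (1.04, adjusted p = 0.040). Duxf3, a row for Dux, the factor that switches this programme on, had 0.982, 0.862 and 0.916 CPM in MCM2-2A#2 and 0.461, 0.198 and 0.263 CPM in MCM2-2A#1 (1.56, adjusted p = 0.096). No library of one clone overlapped the other in these 4 rows.

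The retrovirus that accompanies the 2-cell-like state was the repeat element that the edgeR test called with all 6 libraries. MERVL-int, the body of the element, had 627, 620 and 886 CPM in MCM2-2A#2, against 261, 303 and 304 CPM in MCM2-2A#1 (log2 fold change 1.30, SE 0.15, adjusted p = 0.0092). MT2_Mm, its promoter repeat, had 187, 189 and 238 CPM, against 81.6, 95.3 and 86.6 CPM (1.22, SE 0.12, adjusted p = 0.0040). They were 2 of 907 repeat subfamilies (0.221%). Other fits on the same 6 libraries called more, 35 with DESeq2, 58 with the spread taken from all clone libraries, 348 without a low-count filter and 285 with the replicate number as a block, although the numbers did not pair the libraries, while RLE factors called 1.

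In the bridged difference this group had smaller values, and the members named next did not pass the test. Its median was 0.47 over the list, Zscan4d was at 0.85 (adjusted p = 0.023), Zscan4c was at 0.62 (adjusted p = 0.079), MERVL-int at 0.35 (adjusted p = 0.58) and MT2_Mm at 0.23. Without WT#1 rescue culture 2 the list median was 0.66. Zscan4d (0.98, adjusted p = 0.0044) and Zscan4-ps2 (0.92, adjusted p = 0.0035) then passed the test. Zscan4a, Zscan4b, Zscan4c, Zscan4e, Zscan4f, Zscan4-ps3, MERVL-int (0.43, adjusted p = 0.50) and MT2_Mm did not. Over WT#1, Zscan4c was 0.33 in MCM2-2A#2 (rescue) and -0.29 in MCM2-2A#1 (March), and MERVL-int 0.60 (adjusted p = 0.0032) and 0.25. The test of the January against the bridged difference did not pass for Zscan4c (0.80 apart, adjusted p = 0.73) or MERVL-int (0.96 apart, adjusted p = 0.29). MCM2-2A#3 over MCM2-2A#1 in March gave 1.52 for Zscan4c and a list median of 0.95. Since some rows lay at different levels in the rescue and March libraries, the bridged values of copied genes and repeats are less certain.

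A further group of genes was low in MCM2-2A#2 libraries 2 and 3 but near the MCM2-2A#1 level in library 1. They are lineage genes that ESCs in serum express at a low level. T (Brachyury), the mesoderm and primitive streak factor, had 15.8, 1.5 and 1.31 CPM in MCM2-2A#2, against 20.1, 20.3 and 21.5 CPM in MCM2-2A#1. With all libraries the log2 fold change was -1.71 with SE 0.79 (adjusted p = 0.25), and without library 1 it was -3.88 (adjusted p = 3.3e-06). Sp5, a direct target of WNT signalling, had 12.6, 1.33 and 1.28 CPM, against 18.8, 20.8 and 18.9 CPM, and Wnt3, a streak ligand, 11.1, 2.67 and 2.57 CPM, against 12.2, 14.1 and 14.8 CPM. All of these MCM2-2A#2 values were below MCM2-2A#1, but library 1 by a small step and the others by a large one.

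Keratins and matrix genes had the same shape. Krt8, a simple epithelial keratin, had 175, 61.6 and 31.4 CPM in MCM2-2A#2, against 233, 323 and 332 CPM in MCM2-2A#1 (log2 fold change -1.73, adjusted p = 0.14, and -2.68, adjusted p = 0.00044, without library 1). Krt14, a basal keratin, had 3.26, 0.556 and 0.419 CPM, against 4.07, 5.89 and 6.31 CPM. Cdx2, the trophectoderm and posterior homeobox factor, had 7.21, 2.47 and 1.81 CPM in MCM2-2A#2, against 10.8, 11.5 and 12.8 CPM in MCM2-2A#1. Thbs1, a matrix glycoprotein, had 210, 47.1 and 34.9 CPM, against 188, 246 and 233 CPM, and Nefm, a neurofilament, 14.6, 1.86 and 1.96 CPM, against 12.4, 12.3 and 10.5 CPM, so that in both genes library 1 overlapped MCM2-2A#1. Acta1 and Actc1, muscle actins, had 24.1, 5.48 and 3.40 CPM and 2.79, 0.278 and 0.236 CPM in MCM2-2A#2, against 30.6, 39.5 and 36.9 CPM and 3.25, 3.39 and 3.53 CPM in MCM2-2A#1.

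**Figure D3:**
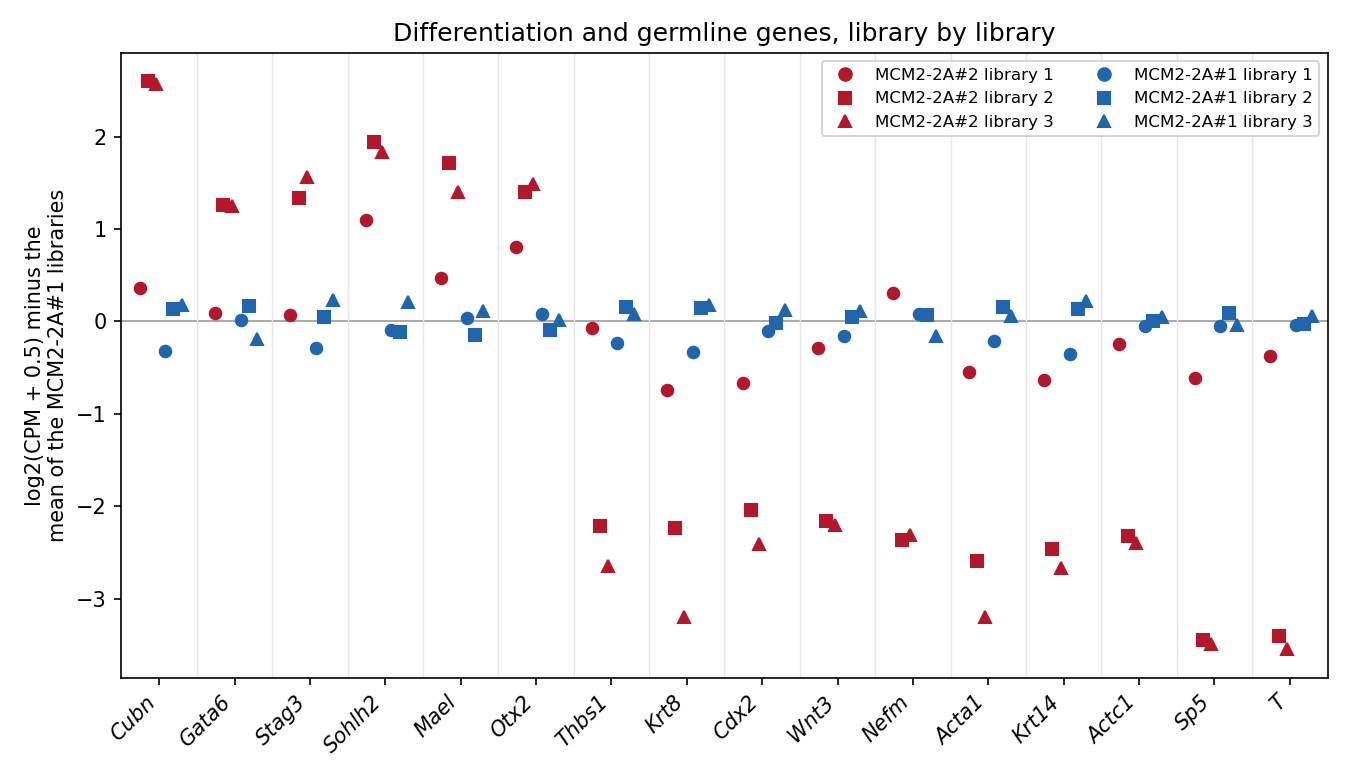
Levels in each January library of genes in which the MCM2-2A#2 libraries disagree. MCM2-2A#2 is in red and MCM2-2A#1 in blue (circle, square and triangle for libraries 1, 2 and 3). In most of these genes the red circle, MCM2-2A#2 library 1, lies nearer the blue points than libraries 2 and 3 do. T is an example, drawn from values of 15.8 CPM in library 1, against 1.5 and 1.31 CPM in libraries 2 and 3. In Sohlh2 library 1 lies between the blue points and libraries 2 and 3.

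The lists show how wide this was. Without library 1, 13 of 27 epithelial and desmosome genes, 12 of 25 trophectoderm genes, 13 of 30 fibroblast and matrix genes and 10 of 28 mesoderm, cardiac and muscle genes were called lower, beside 4.49% of all genes. Krt8, Krt18 and Krt19 stand in both the epithelial and the trophectoderm list. Median log2 fold changes with all libraries were -0.60 (epithelial), -0.39 (trophectoderm), -0.67 (fibroblast) and -0.74 (mesoderm). By library, the epithelial median lay at -0.22, -0.58 and -0.76 from the MCM2-2A#1 mean in MCM2-2A#2 libraries 1, 2 and 3, and the mesoderm median at -0.07, -0.52 and -1.05. In the bridged difference the medians were -0.72, -0.60, -0.62 and -0.41 in the order epithelial, trophectoderm, fibroblast, mesoderm. Over all 913 genes called lower without library 1, library 1 lay at a median of -0.20 and libraries 2 and 3 at -1.03 and -1.08, and 603 of them (66%) had library 1 less than 25% of the way from MCM2-2A#1 to libraries 2 and 3. Over the 526 genes called higher without library 1, the medians were 0.36 in library 1 and 0.91 and 0.97 in libraries 2 and 3, and 136 (25.9%) had library 1 that near to MCM2-2A#1. These counts use values that the choice to leave out library 1 rested on, so they describe that library.

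Levels of such genes also varied between cultures of 1 clone in the other experiments. T had 1.1, 0.7, 8.8 and 8.8 CPM in the 4 MCM2-2A#2 rescue cultures, against 17.6, 2.7, 16.9 and 16.3 CPM in the 4 WT#1 rescue cultures. In March it had 0.7, 1.2 and 1.5 CPM in MCM2-2A#3 and 21.3, 19.99 and 22.8 CPM in MCM2-2A#1, against 9.8, 12.4 and 17.8 CPM in WT#1. MCM2-2A#1 was thus high at both times, and the MCM2-2A#2 cultures fell into a low and an intermediate pair. Its bridged difference of -2.10 did not pass the test (adjusted p = 0.17), also without WT#1 culture 2 (-2.43, adjusted p = 0.043). Without that culture Thbs1 (-2.25, adjusted p = 0.0020), Krt8 (-2.21, adjusted p = 0.0058), Wnt3 (-1.84, adjusted p = 0.0057), Actc1 (-2.03, adjusted p = 0.0078) and Krt14 (-2.39, adjusted p = 0.0098) passed it, and with it they did not.

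**Figure D4:**
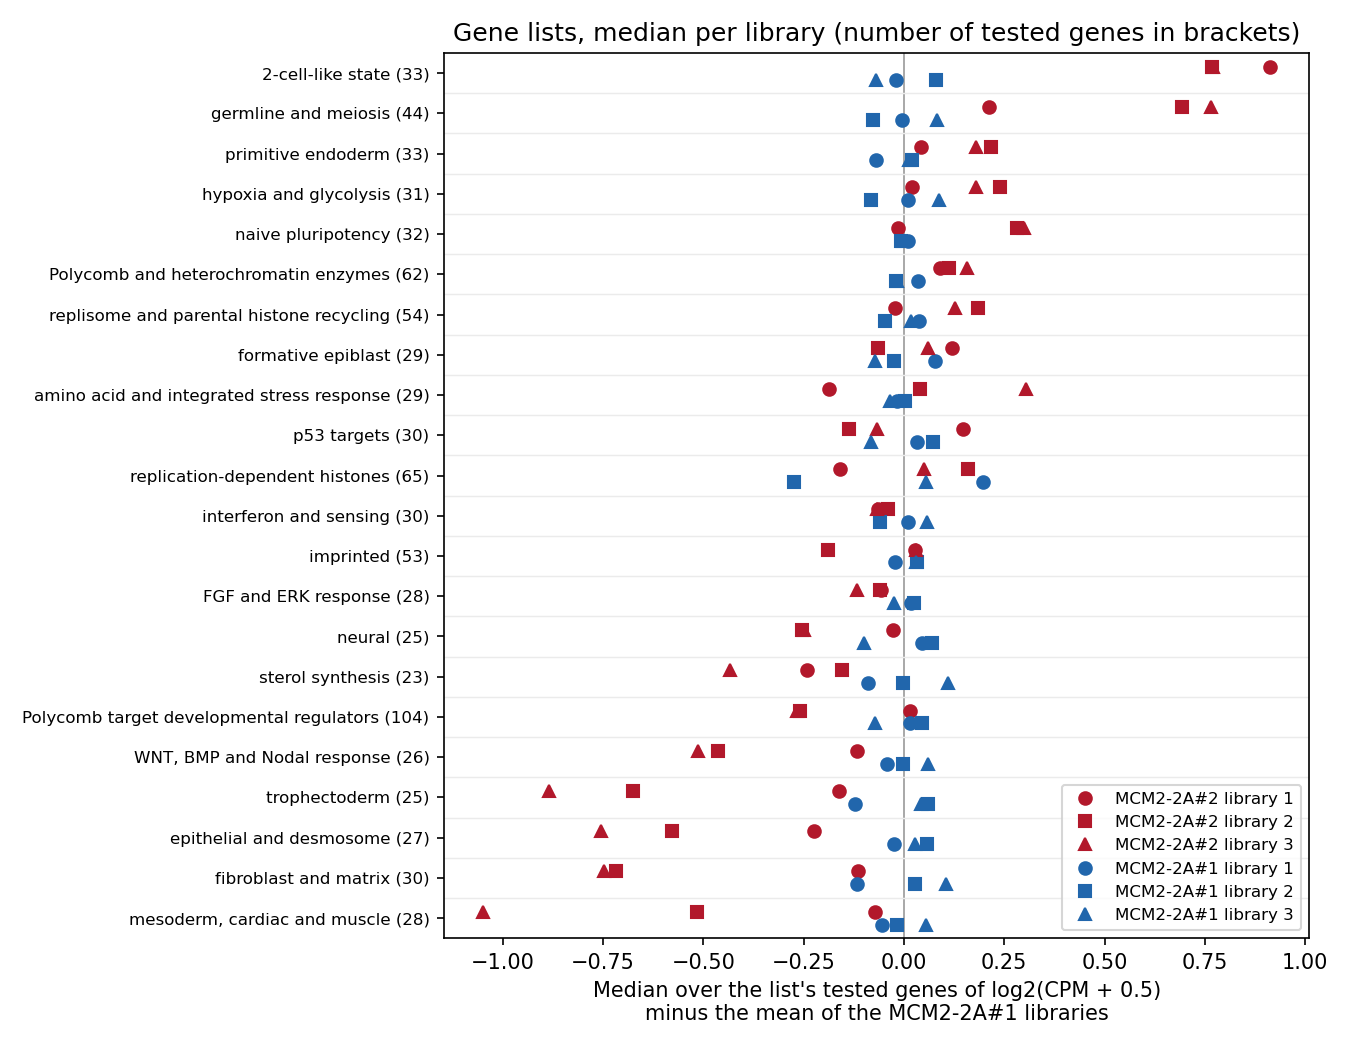
Median deviation of each gene list with at least 20 tested genes from the MCM2-2A#1 mean, on the log2(CPM + 0.5) scale, with 1 point for each January library (MCM2-2A#2 red, MCM2-2A#1 blue). The 2-cell-like list lies between 0.77 and 0.91 in all 3 MCM2-2A#2 libraries, whereas the germline list lies at 0.21 in library 1 and at 0.69 and 0.77 in libraries 2 and 3.

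The 149 genes called alike without library 1 and in the bridged difference comprised 21 higher and 128 lower in MCM2-2A#2. Among the 128, the median log2 fold change over WT#1 was -0.45 in MCM2-2A#2 (rescue) and 0.63 in MCM2-2A#1 (March), and in 86 of them the larger shift from WT#1 was that of MCM2-2A#1. Among the 21, it was 0.46 and -0.67 in that order, with the larger shift in MCM2-2A#1 for 14. These values are parts of the bridged difference that chose the genes and are given as a description, as are the examples, which were picked after their values were seen. Mreg, a melanosome transport regulator, had 187, 238 and 224 CPM in MCM2-2A#2, against 116, 106 and 107 CPM in MCM2-2A#1, a log2 fold change of 0.98 (adjusted p = 0.012) and a bridged difference of 0.85, nearly all of it from MCM2-2A#2 (0.90 over WT#1, against 0.05 in MCM2-2A#1). Gna14, a G protein alpha subunit, had 1.91, 1.47 and 1.91 CPM, against 3.86, 4.25 and 4.16 CPM, and was also set by MCM2-2A#2 (-1.79 over WT#1, against -0.39). In Lox, which crosslinks collagen, and Plau, a protease of matrix turnover, the larger part was a level above WT#1 in MCM2-2A#1 (1.18 and 1.96). Lox had 4.52, 0.89 and 0.916 CPM in MCM2-2A#2, against 3.57, 5.38 and 4.40 CPM in MCM2-2A#1, and Plau 5.48, 1.75 and 0.969 CPM, against 6.99, 7.47 and 6.88 CPM.

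Of the genes with the largest log2 fold changes without library 1, taken after that alternative was seen, several belong to no list. Xist, the RNA that coats an inactive X, had 2.40, 2.31 and 6.78 CPM in MCM2-2A#2, against 0.365, 1.08 and 0.876 CPM in MCM2-2A#1, with no overlap (log2 fold change 2.31, SE 0.53, adjusted p = 0.099, and 2.56, adjusted p = 0.0076, without library 1), and a bridged difference of 0.57 (adjusted p = 0.62). Its antisense partner Tsix had 11, 17.7 and 28.8 CPM, against 5.86, 8.73 and 8.15 CPM, and the strand setting of the counting is not given, so the pair cannot be told apart. Sprr2a1, a cornified envelope gene of stratified epithelium with near-identical copies, had 8.17, 1.36 and 0.654 CPM in MCM2-2A#2, against 11.9, 13.6 and 14 CPM in MCM2-2A#1, again with library 1 nearest MCM2-2A#1. A2m, a protease inhibitor, had 5.03, 8.48 and 8.77 CPM, against 2.27, 1.52 and 3.02 CPM (1.71, adjusted p = 0.045).

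Germline and meiosis genes mostly had higher values in MCM2-2A#2, again more so in libraries 2 and 3. Of 44 tested, 23 (52.3%) had all MCM2-2A#2 libraries above MCM2-2A#1, beside 14.6% of all genes. The median log2 fold change was 0.74, and 18 were called higher without library 1, beside 2.59% of all genes. Sohlh2, a germ cell transcription factor, had 6.62, 12.3 and 11.4 CPM in MCM2-2A#2, against 2.61, 2.56 and 3.33 CPM in MCM2-2A#1 (log2 fold change 1.83, SE 0.25, adjusted p = 0.021), and its bridged difference of 1.58 was called (adjusted p = 0.00072). Mael, of the piRNA pathway, had 6.19, 15.3 and 12.3 CPM, against 4.47, 3.86 and 4.73 CPM (1.37, adjusted p = 0.090), and a called bridged difference of 1.18 (adjusted p = 0.0075). Stag3, a meiotic cohesin subunit, had 7.74, 19.4 and 22.7 CPM in MCM2-2A#2 and 5.95, 7.65 and 8.74 CPM in MCM2-2A#1, so library 1 overlapped. Dazl, a germ cell RNA-binding protein, had 12.2, 16.6 and 16.6 CPM, against 7.66, 7.45 and 7.40 CPM (1.01, adjusted p = 0.028). Tex11, Syce1 and Smc1b, which act in meiotic recombination, synapsis and cohesion, had log2 fold changes of 1.54, 1.32 and 1.62 with adjusted p values of 0.063, 0.082 and 0.086.

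Some primitive endoderm genes had higher values in MCM2-2A#2 libraries 2 and 3, with others of the list lower. Cubn, an endocytic receptor of that lineage, had 3.69, 19.3 and 19 CPM in MCM2-2A#2, against 2.13, 3.09 and 3.22 CPM in MCM2-2A#1 (log2 fold change 2.31, adjusted p = 0.10, and 2.77, adjusted p = 6.3e-05, without library 1). Gata6, its leading transcription factor, had 1.91, 4.92 and 4.90 CPM, against 1.79, 2.05 and 1.49 CPM, and Gata4 3.05, 6.17 and 4.58 CPM, against 2.73, 2.23 and 2.17 CPM. Without library 1, 5 of 33 genes were called higher and 4 lower (2.59% and 4.49% over all genes), and the median over the list was 0.20 with all libraries. Gata4 had a called bridged difference of 1.15 (adjusted p = 0.0076). The lower 4 were Cited1, Plat, Serpinh1 and Apoe.

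The core pluripotency genes Pou5f1 and Sox2 and the ligand Fgf4 did not pass the test with all libraries. Pou5f1 had 573, 777 and 586 CPM in MCM2-2A#2, against 637, 595 and 708 CPM in MCM2-2A#1, with overlap and a log2 fold change of 0.00 (adjusted p = 0.99). Sox2 had 233, 250 and 261 CPM, against 206, 195 and 190 CPM, with no overlap but a log2 fold change of 0.33 (adjusted p = 0.11). Fgf4, which drives ERK signalling in ESCs, had 103, 138 and 133 CPM, against 88.7, 82.5 and 83.5 CPM, a log2 fold change of 0.55 (adjusted p = 0.085) and a called bridged difference of 0.73 (adjusted p = 0.0036). Over the 32 naive genes the median was 0.16, 8 (25%) lay wholly above MCM2-2A#1, beside 14.6% of all genes, and 6 were called higher without library 1, beside 2.59% of all genes, among them Tbx3 and Rex2.

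WNT, BMP and Nodal response genes divided. Without library 1, 9 of 26 were called lower and 1 higher (4.49% and 2.59% over all genes), with a list median of -0.38 with all libraries. The higher one was Lef1, a DNA-binding partner of beta-catenin, with 33.1, 53.4 and 51.1 CPM in MCM2-2A#2, against 21.7, 20.3 and 19.4 CPM in MCM2-2A#1 (log2 fold change 1.16, SE 0.17, adjusted p = 0.029). Its bridged difference was 0.16 (adjusted p = 0.71). Among Polycomb and heterochromatin enzymes 20 of 62 (32.3%) lay wholly above MCM2-2A#1, beside 14.6% of all genes, and without library 1 6 were called higher and 1 lower, beside 2.59% and 4.49% of all genes. Dnmt3a, a de novo DNA methyltransferase, had 163, 277 and 284 CPM, against 150, 125 and 141 CPM (0.80, adjusted p = 0.11), and Tet2, which oxidises methylated cytosine, 119, 180 and 218 CPM, against 97.4, 104 and 120 CPM (0.69, adjusted p = 0.13). Genes of the replisome and of parental histone recycling, Mcm2 included, had a median of 0.10 over 54 genes, and 5 lay wholly above MCM2-2A#1 (9.26%, beside 14.6% of all genes) and 2 wholly below (3.7%, beside 13.3%).

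Genes of sterol synthesis had negative log2 fold changes in all 23 members, with a median of -0.32. In 11 of them (47.8%) the libraries did not overlap, beside 13.3% of all genes. Library medians were -0.24, -0.16 and -0.43 in MCM2-2A#2 and -0.09, 0.00 and 0.11 in MCM2-2A#1, and the bridged median was -0.16. Replication-dependent histone genes, 65 of them, had a median of -0.03, and 1 (1.54%, beside 14.6% of all genes) had all MCM2-2A#2 libraries above MCM2-2A#1. Polycomb target developmental regulators, 104 of them, had a median of -0.38 with library medians of 0.01, -0.26 and -0.27 in MCM2-2A#2, and a bridged median of 0.04.

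Most repeat subfamilies had higher values in MCM2-2A#2. Of 907 subfamilies 888 (97.9%) had a positive log2 fold change, with a median of 0.82, 562 had an unadjusted p below 0.05, and 367 (40.5%) had all MCM2-2A#2 libraries above MCM2-2A#1, against 4 (0.441%) below. Without library 1, 382 of 934 subfamilies were called higher (40.9%) and 2 lower (0.214%). Class medians were 0.78 for LTR elements (540 subfamilies), 0.83 for LINEs (142), 0.85 for SINEs (35), 0.88 for DNA transposons (165) and 0.71 for satellites (5). The 1 subfamily of class RNA had -0.33. By library the median deviation was 0.22, 0.53 and 1.11 in MCM2-2A#2 and -0.31, 0.17 and 0.15 in MCM2-2A#1, so that MCM2-2A#2 library 1 was close to 2 of the MCM2-2A#1 libraries.

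**Figure D5:**
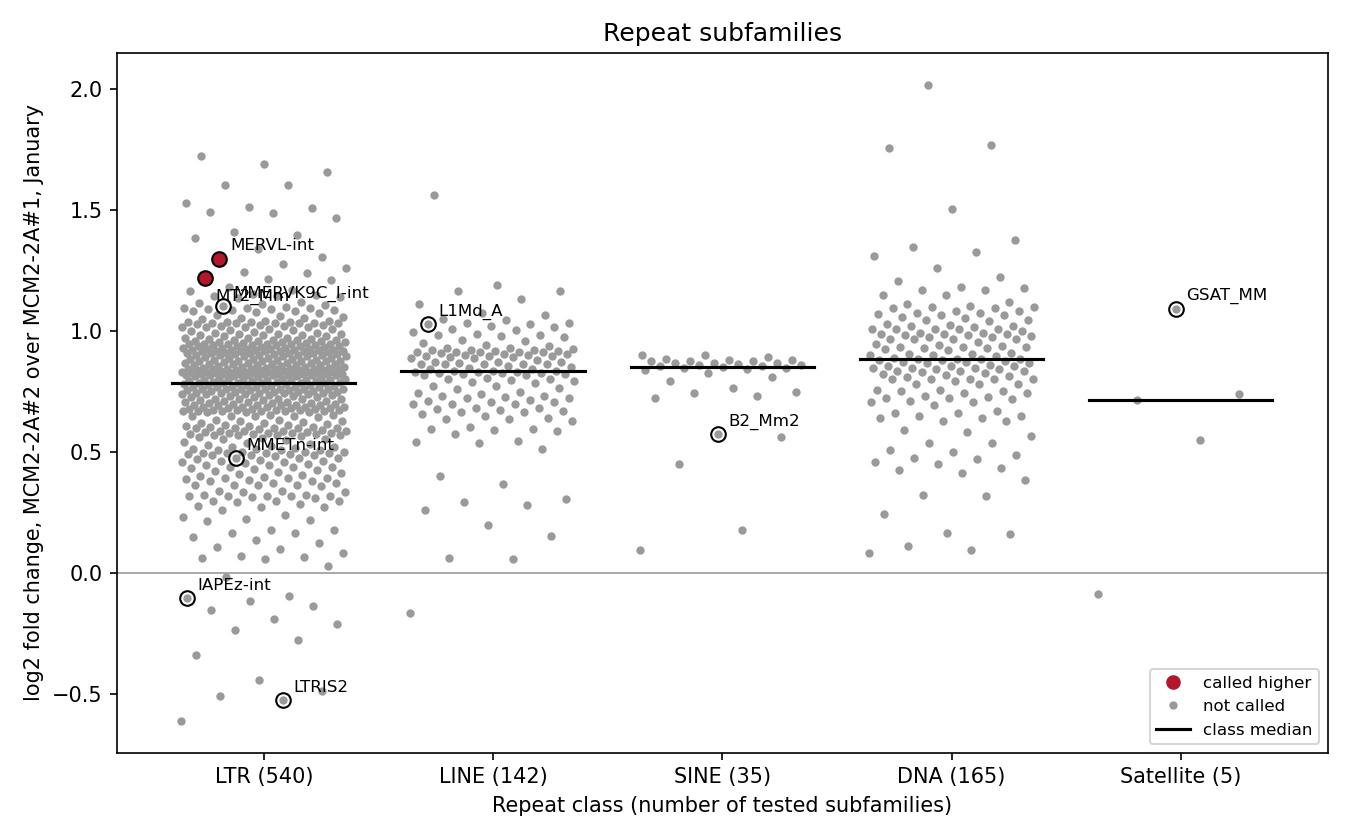
Log2 fold change of MCM2-2A#2 over MCM2-2A#1 for each repeat subfamily in January, grouped by class, with the class median as a bar and called subfamilies marked. The class medians run between 0.71 and 0.88, and MERVL-int (1.30) and MT2_Mm (1.22) are the called points.

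Repeat reads made up 4.08%, 4.81% and 5.84% of counted reads in MCM2-2A#2 and 2.96%, 3.77% and 3.83% in MCM2-2A#1. Other RNA classes moved with the same libraries. The nuclear RNA Malat1 had 1147, 1291 and 2374 CPM in MCM2-2A#2, against 782, 1221 and 1183 CPM in MCM2-2A#1, and Gm26917, which took up 10.2% to 17.0% of gene counts, had its highest level in MCM2-2A#2 library 3, which was also the highest for repeats. Rn7sk was lowest there, with 1904 CPM, against 7616 to 9600 CPM in the other 5 libraries. The part of such differences in RNA composition in the repeat result was not tested. Without library 3 the repeat median was 0.44.

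Values of single subfamilies, chosen after they were seen, show the range around this shift. L1Md_A, a young LINE family, had 1401, 1976 and 2761 CPM in MCM2-2A#2, against 844, 1150 and 1018 CPM in MCM2-2A#1 (log2 fold change 1.03, adjusted p = 0.068). GSAT_MM, the major satellite of pericentric heterochromatin, had 25.4, 35.0 and 22.6 CPM, against 7.39, 16.3 and 15.3 CPM (1.09, adjusted p = 0.068). Both lay within 1 SE (0.23 and 0.29) of the median over all subfamilies. IAPEz-int, a retrovirus held down by H3K9me3 in ESCs, had 240, 264 and 288 CPM in MCM2-2A#2 and 285, 260 and 306 CPM in MCM2-2A#1, with overlap (-0.10, adjusted p = 0.36). LTRIS2 and RLTR1B-int were the lower pair without library 1, at -0.78 and -0.75. MERVL-int lay 0.48 and MT2_Mm 0.40 above the median of all subfamilies, 0.33 and 0.23 without library 1, and 0.15 and 0.03 in the bridged difference. In the bridged difference edgeR and DESeq2 each called 0 of 945 subfamilies (85 had an unadjusted p below 0.05 in edgeR), and the median was 0.20. The March pair called 151 of 920 higher (16.4%) and 1 lower (0.109%), and MCM2-2A#1 in January over March called 2 of 899, both lower (0.222%).

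Runs of neighbouring genes with a shared shift were mostly made up of predicted genes and gene families. Besides the chromosome 6 stretch and a run of 43 genes on Y (median -0.58), they were found by a running median over 21 tested genes and are given as a description. A run of 54 genes on chromosome 13 from Zfp369 to Gm5451 had a median of 0.86, a run of 74 on chromosome 2 from Gm14444 to Ppp1r3d one of 0.49 and a run of 56 on chromosome 4 from Gm13228 to Zfp534 also 0.49, with 2, 10 and 16 symbols that start with Zfp, the zinc finger genes, and 52, 61 and 40 Gm models, RIKEN models or pseudogenes, in that order. In these runs MCM2-2A#2 library 1 lay below libraries 2 and 3 (0.32, 0.79 and 1.07 on chromosome 13). Runs on chromosome 5 (Gm43681 to Gm5559, 31 genes, median 1.42), chromosome 7 (Phf20-ps to Crxos, 23 genes, 1.08) and chromosome 12 (Snw1 to Gm5662, 25 genes, 1.13) were as high in library 1 as in the others, like the 2-cell-like genes. Further runs lay on chromosome 10 (Kitl to Slc6a15, 25 genes, 0.98), chromosome 13 (Gm7240 to Gm47585, 34 genes, 0.45) and chromosome 2 (Mir669a-5 to Mir467a-8, 28 genes, 0.34, but -0.33 over its 3 genes with at least 1 CPM). A run of 26 genes on X from Gm7429 to Pcdh19 was lower, with a median of -0.68. In the bridged difference the medians were 0.37, 0.26 and 0.17 for the runs from Zfp369, Gm14444 and Gm13228, 0.29, -0.04 and 0.43 for those from Gm43681, Phf20-ps and Snw1, 0.17, 0.16 and -0.36 for those from Kitl, Gm7240 and Mir669a-5, 0.03 for the X run and -1.31 for the Y run. Reads that fit several copies make the single genes of such runs uncertain.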

How the data were processed

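RNA-seq counts were analysed as deposited. Per the labels, the authors used Trimmomatic 0.39 for trimming, STAR 2.7.1a for alignment to mm10 and featureCounts for counting (its version is not given in the sources used here), and the study names GENCODE vM23 and RepeatMasker subfamilies. The table holds whole-number counts for 55335 genes and 1146 repeat subfamilies, and how reads with several matches were counted is not known here, so copies and repeats are less certain. Symbols and GRCm38 positions came from GENCODE vM21, which held 55154 of the genes (181 did not match). Columns whose line number fits no sample (7) and the POLE4 table were not used. Technical runs of a rescue culture were summed.

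Library factors (TMM) were computed from gene counts alone, and CPM use them. The filter was filterByExpr with a minimum count of 10 and a minimum total of 15. Genes and repeats were tested with edgeR 4.0.16 (quasi-likelihood F test, limma 3.58.1, R 4.3.3) and adjusted separately by the Benjamini-Hochberg method, and a call took an adjusted p under 0.01 with a log2 fold change over 0.58 in size. The SE is the absolute log2 fold change over the square root of F. All tests were two-sided. Every adjusted p in the text is from such a fit across all features, with 3 libraries a clone in January. The fit was checked on simulated data with known folds. Promoters were those of RefSeq for GRCm38.p6.

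The members, gene lists and comparisons were chosen with earlier results of these data known. Named are up to 12 higher and up to 12 lower called genes with the largest log2 fold change (9 and 3 were called), with a symbol other than a Gm number, RIKEN name or pseudogene, at least 1 CPM and no overlap, called and described list members, called repeats, the bridged calls shared with January, Mcm2, the Tpra1 to Slc6a6 stretch, single-copy Y genes and runs of at least 20 genes. The repeats other than MERVL-int and MT2_Mm, Malat1, Rn7sk, Gm26917, Xist, Tsix, Sprr2a1, A2m and the pseudogenes of Zscan4 were added after their values were seen. Alternatives were DESeq2 1.42.0, RLE factors, factors without Gm26917, no filter, at least 1 CPM in 3 libraries, glmTreat, an adjusted p limit of 0.05, all clone libraries in 1 fit, a replicate block and leaving out each library.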

Additional observations from a re-analysis of the deposited data

Results flagged for a closer look

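Selected genes were examined in the 4 MCM2-2A#2 and the 4 WT#1 rescue cultures for a culture far from its group. Of 28 such checks 3 found one, where chance alone gives about 1 in 20. The checks share the same cultures, so they are not independent and the 3 count as less than 3 separate findings. All 3 concerned culture 2 of WT#1, which enters the bridged difference and no January library. T had 2.68 CPM there, against 16.3 to 17.6 CPM in the other WT#1 cultures, a gap of 0.909 of the whole range. Thbs1 had 42.5 CPM there, against 107.9 to 115.7 CPM. Sohlh2 had 14.1 CPM, against 11.4 to 11.7 CPM.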

How the results depend on the processing

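The January gene calls (12) became 432 with DESeq2, 553 with no low-count filter, 171 at an adjusted p limit of 0.05, 1013 with all clone libraries in 1 fit and 4 with glmTreat, and the January repeat calls (2) became 35, 348, 4, 58 and 0 in that order, and 1 with RLE factors and 1 with at least 1 CPM in 3 libraries. Leaving out each library in turn gave 2 to 1441 January gene calls and 0 to 384 January repeat calls, the highest of both without MCM2-2A#2 library 1. The bridged gene calls (178) became 633 with DESeq2 and 790 at a limit of 0.05, and 42 to 501 over leave-outs, with 0 to 3 bridged repeat calls. MCM2-2A#1 January over March gene calls (88) became 394 with DESeq2 and 44 to 288 over leave-outs. The March clone pair gene calls (3842) ranged over 3176 to 3577. The replicate numbers did not pair the January libraries, since same-numbered libraries deviated with r = -0.0358, -0.434 and 0.0566, and with the replicate block there were 11 gene calls and 285 repeat calls. No value changed sign while called.

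Wnk3 and Ddx3y were called in 15 of 15 alternatives and Grb10 in 13 (not without MCM2-2A#2 library 2, adjusted p = 0.0117, or MCM2-2A#1 library 1, adjusted p = 0.0321). Uty was called in 11, the Zscan4 genes and MT2_Mm in 10 each, Chchd4 in 9 and MERVL-int in 8. Their log2 fold changes ranged over 2.80 to 3.06 for Wnk3, -4.29 to -3.86 for Ddx3y, 2.05 to 2.27 for Grb10, -3.60 to -3.06 for Uty, 1.34 to 1.49 for Zscan4c, -1.11 to -1.05 for Chchd4 and 1.11 to 1.38 for MERVL-int. The repeat median ranged over 0.44 to 1.05. The common dispersion was 0.0307 with all libraries and 0.0176 without MCM2-2A#2 library 1.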
